A study of Homo sapiens with 24 samples.

Results

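The 28607 regions described here carried more acetylated histone H3 lysine 27 (H3K27Ac) than input chromatin in MCF10A (10A) cells depleted of ANCO1. They were all rows of the table in which the authors compared the immunoprecipitated shANCO1 libraries of 10A with input, which the series' design text gives as the input of the same cells, and they made up 28607 of the 76271 regions listed in the 4 tables against input. ANCO1 is the product of ANKRD11, a large nuclear co-regulator that binds nuclear receptor coactivators and histone deacetylases. The series held 24 libraries in 8 groups of 3. The groups were 10A and MCFDCIS (DCIS) cells, each with a hairpin that targets ANCO1 (shANCO1) or GFP as the control (shCTRL), and each as H3K27Ac chromatin and as input chromatin without immunoprecipitation. 10A is a non-tumorigenic human mammary epithelial line, and DCIS is a tumor-forming line derived from it that grows as ductal carcinoma in situ in mice. All groups shared a medium with horse serum, EGF, hydrocortisone, insulin and cholera toxin, and all knockdown lines were made by lentiviral infection and puromycin selection. The shANCO1 #3 line was the one the study named for its comparison of H3K27Ac between shANCO1 and control cells, so a single hairpin stood for the depletion. Nothing in the sources said that the 3 libraries of a group came from separate cultures. The tables gave 1 value per region for a whole group, so the spread between libraries and the sequencing depth were unknown, and no test over libraries could be made.

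H3K27Ac is placed on nucleosomes by the acetyltransferases EP300 and CREBBP and is removed by histone deacetylases. It marks active promoters and active enhancers, the distal elements at which transcription factors recruit coactivators. The mark sits on the nucleosomes that flank a bound element, while the element itself is often free of nucleosomes. In mammary basal cells, enhancers are known to be bound by TP63, AP-1 (FOS and JUN dimers), TEAD and RUNX factors.

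A region was a run of windows of 200 bp, set 100 bp apart, that the authors merged after scoring each against input. The fold of a region was the log2 fold over input of 1 representative window that the authors' software picked, and its FDR combined all its windows. All 28607 regions were up over input with an FDR of at most 1.46e-08, which is 100% of the table, so every count below is a count of listed regions and not a share of the genome that was tested. The filter that the authors used before listing was not given in the sources used here. A gene or stretch with no region is therefore one that was not listed, and not one shown to lack the mark.

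Short gaps between neighboring regions were where AP-1 letters were densest, so sequences of such gaps are shown first. A gap is a stretch of 200 to 600 bp with no listed window between 2 listed regions. The gaps were examined after it was seen that the AP-1 letters were rarer in the representative windows than at the midpoints of the same regions. The capitals mark TGACTCA or its reverse TGAGTCA (AP-1), GGANTTTCC (NF-kB) or GCGCATGC (NRF1), each searched on both strands. The first 3 sequences are 200 bases upstream of annotated starts, taken from RefSeq promoters on GRCh38.p14 without the bases next to the start. They are given 5′ to 3′ on the strand of the gene. They show AP-1 letters at a gene listed with a region in no other group (CXCL8), at a laminin gene of the hemidesmosome (LAMA3) and in the promoter region with the largest fold (ABL2). The other 4 are the parts around the matches of gaps on GRCh38, shown because these held 2 AP-1 matches or NRF1 matches on both strands, which overlap, between 2 regions of at least 5 windows.
CXCL8, chr4:73740319-73740518, + strand: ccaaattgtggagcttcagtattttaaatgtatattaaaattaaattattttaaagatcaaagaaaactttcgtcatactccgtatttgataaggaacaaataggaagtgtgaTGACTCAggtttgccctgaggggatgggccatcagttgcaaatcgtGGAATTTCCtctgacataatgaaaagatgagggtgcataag
LAMA3, chr18:23872770-23872969, + strand: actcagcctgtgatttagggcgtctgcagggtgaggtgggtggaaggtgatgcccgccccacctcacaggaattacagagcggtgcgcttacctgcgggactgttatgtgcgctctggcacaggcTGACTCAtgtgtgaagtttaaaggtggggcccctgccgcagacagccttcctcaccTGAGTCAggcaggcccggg
ABL2, chr1:179143127-179143326, - strand: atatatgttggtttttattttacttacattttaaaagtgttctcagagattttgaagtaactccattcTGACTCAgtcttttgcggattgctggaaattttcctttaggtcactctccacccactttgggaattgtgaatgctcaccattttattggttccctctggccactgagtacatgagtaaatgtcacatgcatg
EFNB2 intron gap, chr13:106507999-106508172, + strand: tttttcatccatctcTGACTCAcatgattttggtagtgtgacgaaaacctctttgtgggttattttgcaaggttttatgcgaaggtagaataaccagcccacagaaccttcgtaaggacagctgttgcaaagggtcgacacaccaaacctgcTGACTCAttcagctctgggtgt
Intergenic gap on chromosome 1, chr1:234564731-234564903, + strand: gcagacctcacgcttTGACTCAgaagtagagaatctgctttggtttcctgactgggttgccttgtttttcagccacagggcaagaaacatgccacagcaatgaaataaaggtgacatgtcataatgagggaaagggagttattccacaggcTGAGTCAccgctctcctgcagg
Intergenic gap on chromosome 4, chr4:74618905-74618965, + strand: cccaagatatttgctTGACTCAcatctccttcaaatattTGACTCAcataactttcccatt
NUP50 promoter gap, chr22:45163854-45163893, + strand: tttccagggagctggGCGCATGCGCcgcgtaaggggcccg

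CXCL8 encodes interleukin-8, a chemokine that attracts neutrophils. Its 200 bases held 1 AP-1 and 1 NF-kB match and lay in a gap of 400 bp between a region with a log2 fold of 7.20 (4 windows) upstream and one of 7.69 (19 windows) over the gene. The LAMA3 sequence held 2 AP-1 matches and lay in a gap of 400 bp between regions with log2 folds of 3.87 and 4.34. The ABL2 sequence held 1 AP-1 match and lay inside the region with a log2 fold of 8.76, so it was not in a gap. The EFNB2 gap, in an intron of the gene for the ligand ephrin-B2, spanned chr13:106507901-106508200 between log2 folds of 4.62 and 4.44. The gap at chr1:234564601-234565000 lay between log2 folds of 6.09 and 4.52, and the gap at chr4:74618801-74619100 lay between 4.29 and 5.10. The gap at chr22:45163701-45164000 overlay the promoter of NUP50, a nuclear pore gene, between log2 folds of 4.33 and 3.40. Among all 55524 windows of 200 bp centered on starts of protein-coding transcripts, 2.35% held the AP-1 letters, 1.03% the NF-kB letters and 2.67% the NRF1 letters. These windows span the start, while the promoter sequences above lie upstream of it.

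AP-1 letters were denser in the gaps than in the regions on either side. Among the 2370 gaps between regions without a promoter letter, 41.0% (39.0% to 43.0%, Wilson 95% interval for counting error) held at least 1 match, against 15.3% of the 4492 regions beside them. Per length this was 1.25 matches per kb in gaps and 0.27 per kb in regions, a ratio of 4.64. TEAD letters (GGAATG) were at 1.03 and 0.66 per kb, a ratio of 1.56, and RUNX letters (TGTGGTT) were at 0.34 and 0.22 per kb, also a ratio of 1.56. GRHL (AACNNGTT), STAT (TTCNNGGAA) and NFY (CCAAT) letters had ratios of 0.93, 1.05 and 0.97. CRE letters (TGACGTCA) had a larger ratio than AP-1, 6.85, but rested on 16 matches in gaps and 8 in regions, and ETS letters (CCGGAAGT) had 2.48 from 13 and 18 matches. The share of gaps with AP-1 letters was 39.6%, 42.0%, 42.3% and 41.9% in gaps of 300, 400, 500 and 600 bp, while matches per kb, which divide by that length, went from 1.53 to 0.83. In gaps of over 1 kb up to 2 kb it was 34.9%, with 0.27 matches per kb. The GC content was 44.6% in the gaps and 41.4% in the regions beside them. The ratio was 4.76 in 10A shCTRL, 5.02 in DCIS shANCO1 and 3.70 in DCIS shCTRL, so the pattern was present in all 4 groups and not particular to depleted 10A cells. A match to letters is a description of the sequence and does not show that a factor was bound.

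**Figure D1:**
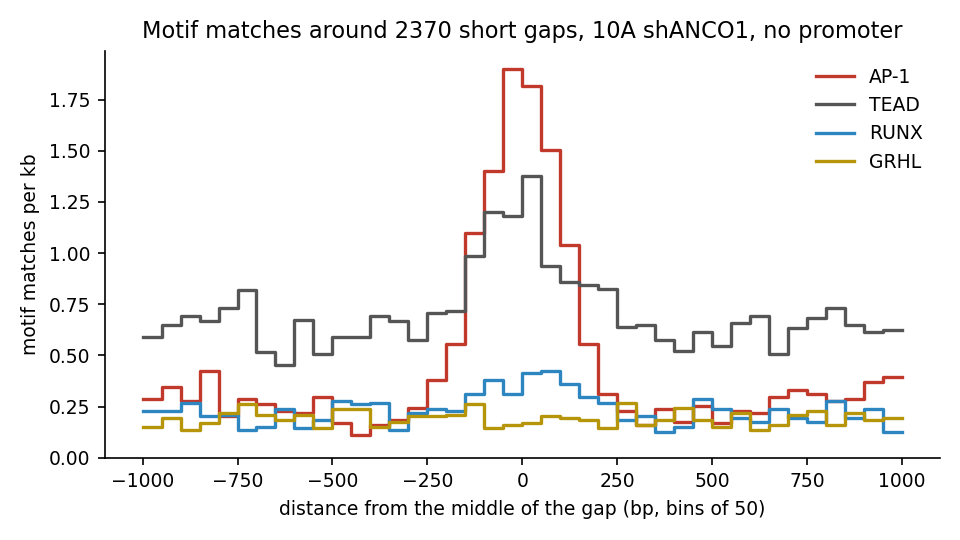
Matches per kb to AP-1, TEAD, RUNX and GRHL letters (y axis) by distance from the middle of the 2370 short gaps between regions without a promoter letter in 10A shANCO1 (x axis, bp, bins of 50). AP-1 reached 1.90 per kb at the middle of the gap, while the other 3 motifs showed smaller differences from their flanks.

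In promoter gaps the ratios of NRF1 and ETS letters exceeded that of AP-1. Among the 3278 gaps with a promoter region on both sides, NRF1 matches were at 0.17 per kb in the gap and 0.03 per kb in the regions beside it (ratio 5.76), and ETS letters were at 0.13 and 0.02 per kb (ratio 5.44). AP-1 was at 0.50 and 0.16 per kb (ratio 3.12), CRE at 0.054 and 0.014 per kb (ratio 3.93), NFY at 1.88 and 1.19 per kb (ratio 1.57), and TEAD at 0.56 per kb in both (ratio 0.99). NRF1 and ETS factors bind promoters of broadly expressed genes. The GC content was 57.7% in these gaps and 52.0% beside them.

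Across the starts of the 19962 protein-coding genes of the reference annotation, listed regions dipped upstream of the start and peaked downstream of it. The share of genes covered was 20.5% at 400 bp upstream, 17.1% at 100 bp upstream and 34.4% at 300 bp downstream. The start itself was covered in 4097 genes (20.5%). It was in a gap with a region within 1 kb on both sides in 6.52% of genes, had a region within 1 kb downstream only in 2717 (13.6%) and upstream only in 633 (3.17%). In 10A shCTRL the start was covered in 3.93% of genes and the peak of 11.7% was likewise 300 bp downstream.

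**Figure D2:**
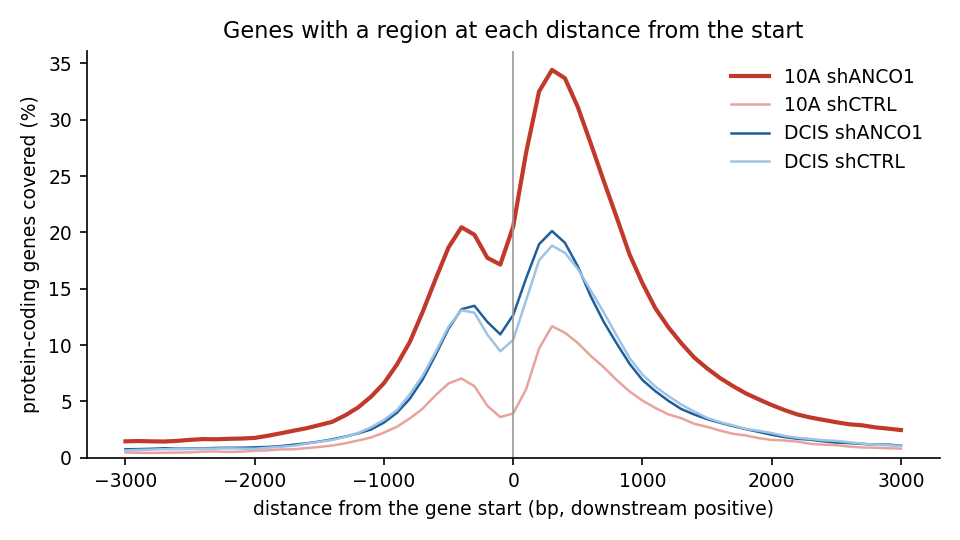
Share of the 19962 protein-coding genes covered by a listed region (y axis, %) at each distance from the gene start (x axis, bp, downstream positive), with 1 line per group. The 10A shANCO1 line lies at 20.5% at the start and reaches 34.4% at 300 bp downstream.

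The strength of the mark over input spanned a wide range. The log2 fold ran from 1.91 to 9.16 with a median of 3.40 (quartiles 2.93 and 4.07), so the median region was 10.5-fold over input and the weakest 3.77-fold. Widths ran from 200 to 5000 bp with a median of 600 bp, 3951 regions (13.8%) rested on 1 window, and 14672 (51.3%) held at least 5 windows. Wider regions had larger folds (Spearman correlation 0.37 across the 28607 regions, which share their libraries). The median log2 fold was 3.32 in 10A shCTRL, 4.47 in DCIS shANCO1 and 4.09 in DCIS shCTRL. These tables were scored separately, so the medians are set side by side and not compared.

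The largest folds formed a group of their own. Only 131 regions had a log2 fold from 6 to 6.5, against 418 from 5.5 to 6 and 555 from 6.5 to 7. In all, 1171 regions (4.09%) were at 6.5 or above, and 2.36% of promoter, 6.74% of intronic and 5.90% of intergenic regions were. The same dip was present in the other groups, with 9.30%, 12.2% and 18.9% at 6.5 or above in 10A shCTRL, DCIS shANCO1 and DCIS shCTRL. How many input reads lay behind these values was unknown, and the part that few input reads play in a large fold was not tested. The split at 6.5 was chosen after the distribution was seen.

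**Figure D3:**
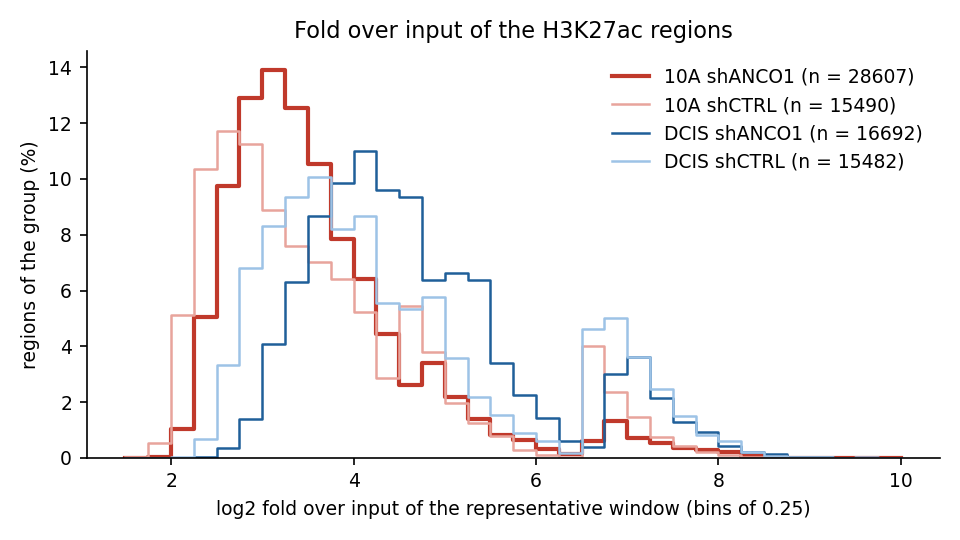
Share of each group's regions (y axis, %) by log2 fold over input of the representative window (x axis, bins of 0.25), with 1 line per group. The 28607 regions of 10A shANCO1 have a median of 3.40 and show a small separate rise above 6.5.

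Promoters were the largest class of listed regions and had the smaller folds. The authors' annotation gave a promoter letter to 16220 regions (56.7%, 56.1% to 57.3%), an exon letter without promoter to 639 (2.23%), an intron letter alone to 6646 (23.2%) and none to 5102 (17.8%), here called intergenic. The median log2 fold was 3.28 for promoter regions (quartiles 2.87 and 3.80), 3.70 for exonic, 3.64 for intronic and 3.54 for intergenic regions. Promoter regions had a median width of 700 bp and intronic and intergenic regions one of 500 bp. The promoter letter was broad: 66.6% of promoter regions lay within 1 kb of a protein-coding start of the reference annotation, and 1320 (8.14%) lay over 50 kb from one. Of the intronic regions 47.0% and of the intergenic regions 55.7% lay over 50 kb from such a start, with median distances of 45281 and 61656 bp. The left and right columns of the table, which name exons within 10 kb of a region, were both empty for 3979 intergenic regions (78.0%) and for 2682 intronic regions (40.4%).

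AP-1 letters were also more frequent in the distal regions than at promoters. In the 500 bp at the midpoint, 17.8% of the 12387 regions without a promoter letter and 8.41% of the promoter regions held them, against 5.25% of windows of that length at starts of protein-coding transcripts. TEAD letters stood at 29.1%, 23% and 18.9%, and RUNX letters at 11.1%, 6.91% and 5.13%. ETS letters ran the other way, at 0.43%, 3.26% and 6.38%. GC content differed too, with medians of 40.6%, 56.0% and 63.2%, and its part in these shares was not tested. Of the 3126 regions without a promoter letter with at least 5 windows in an unbroken run, 3.29% held AP-1 letters in the representative window of 200 bp and 7.39% in the 200 bp at the midpoint.

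ANKRD11, the gene targeted by the hairpin, lay on chromosome 16 and had 11 listed regions, 8 of them with a promoter letter. The strongest, chr16:89489401-89490400, had a log2 fold of 5.07 over 8 windows and an FDR of 1.28e-11. It lay just downstream of the annotated start at 89490561, and a region of 3.6 lay on the upstream side, over the divergent gene SPG7, with the start itself in the gap. Neither region was overlapped by a region of 10A shCTRL or of either DCIS group. A cluster of 5 regions 164 to 174 kb downstream of the start had log2 folds from 2.55 to 3.02, and 3 intronic regions had 4.26, 3.95 and 2.71. Regions of 10A shCTRL overlapped 2 of the 11 and regions of DCIS shANCO1 5 of the 11. A short hairpin acts on the mRNA, so these acetylation values are no measure of its efficiency, and no RNA value was used here.

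The promoter region with the largest fold was at ABL2, a cytoskeletal tyrosine kinase gene. At chr1:179141401-179144200 it had a log2 fold of 8.76 over 25 windows, and the regions that overlapped it had 3.62 in 10A shCTRL, 3.97 in DCIS shANCO1 and 5.06 in DCIS shCTRL. It overlay an internal start of the gene, 85.5 kb downstream of the gene's 5′ end. The next in order were at CHD2, a chromatin remodeler (8.58), LINC02015 (8.52), KYNU, an enzyme of tryptophan breakdown (8.47), ZC3H12C (8.43), the HOXA3 to HOXA5 genes (8.42), STC2, a secreted glycoprotein (8.39), RUNX1 (8.36), ROS1 (8.36) and TGFBR2, the type II receptor for TGF-beta (8.35). ROS1 stood at similar values throughout, with 8.36, 8.30 and 8.06 in 10A shCTRL, DCIS shANCO1 and DCIS shCTRL. STC2 was at 7.5 in 10A shCTRL and had no overlapping region in either DCIS group. At TGFBR2 the strongest region began 2000 bp downstream of the start, while the region over the start had a log2 fold of 4.24.

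The strongest regions without a promoter letter were far from genes or in introns. An intergenic region at chr1:98321701-98324800 had the largest log2 fold of the table, 9.16, and lay 336901 bp from the nearest protein-coding start, that of SNX7. Its overlapping regions stood at 5.15 in 10A shCTRL, 5.79 in DCIS shANCO1 and 4.61 in DCIS shCTRL. The next were in introns of TMTC1 (8.62), CEP152 (8.60), MYOSLID-AS1 (8.55) and RIPOR2 (8.55), at chr13:73427601-73430500, 368596 bp from KLF5 (8.54), in introns of LINC01374 (8.54), RAB27B (8.52) and PDGFC (8.50), and at chr4:74631601-74633900, 160623 bp from BTC (8.43). KLF5 is an epithelial transcription factor, and BTC is a ligand of the EGF receptor. All 20 of these strongest regions were overlapped by a region of 10A shCTRL. The CEP152, LINC01374 and PDGFC regions had none in either DCIS group.

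The weakest listed promoter regions had log2 folds from 1.97 to 2.03. They were at TP53INP2 (1.97), PTK6 (1.97), ERVK3-1 (1.99), CAMK2A (2.01) and the divergent pair PRR19 and PAFAH1B3 (2.03), and each rested on 1 to 3 windows. None of these 5 was overlapped in 10A shCTRL, and 4 were overlapped in DCIS shANCO1.

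Joined within 3 kb, the 28607 regions formed 19930 domains, of which 13672 (68.6%) were single regions and 154 spanned over 10 kb. The 154 wide domains held 5.75% of all marked bases, and the same joining gave 43, 59 and 52 such domains in 10A shCTRL, DCIS shANCO1 and DCIS shCTRL. The widest, chr22:46052401-46088000, joined 8 regions over 35600 bp at MIRLET7BHG, the host gene of let-7 microRNAs. It was followed by MIR100HG (30400 bp), the CASC19 and CCAT1 locus (28400 bp) and an intergenic domain 7388 bp from TGFBI (28300 bp), which encodes a secreted matrix protein. Then came domains 9024 bp from DDIT4 (22000 bp), 68121 bp from PTPN1 (20800 bp), over BCL9L and UPK2 (20700 bp), over IRF2BP2 (20500 bp), over TFAP2A, an epithelial transcription factor (20100 bp), and 166814 bp from CAMK1G (19800 bp). The domain near TGFBI held 18200 marked bases in 10A shANCO1, 10400 in 10A shCTRL, 5600 in DCIS shANCO1 and 2500 in DCIS shCTRL. The domain near DDIT4 held 17000, 8000, 17200 and 20000 marked bases in the same order, so it held more in each DCIS group than in 10A shANCO1. No single region was wider than 5000 bp, and 14 tied at that width, among them regions at KLF6, EPHA2 and KYNU.

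The genes with the most marked bases were long ones. The marked bases of a gene are the summed widths of all regions that named it, including promoter regions that can lie outside it. RAD51B, a DNA repair gene, had 50 regions and 59600 marked bases, a sum equal to 6.55% of its length. PRKCH, a protein kinase C, had 34 regions and 40300 bases, and 14 of its regions had a promoter letter, the most of any gene. BCAR3 followed with 33600 bases, PDGFC with 33300, ZMYND8 with 30800, APBB2 with 29100, VMP1 with 28000, RUNX1 with 27800, PDE4D with 26300 and RDX with 25700. Set against gene length, the sums of ZMYND8 (20.9%) and VMP1 (20.7%) were the largest of these 10.

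A promoter region was listed for 10349 of the 19962 protein-coding genes (51.8%), and any region over the gene or its promoter for 11088 (55.5%). In the other groups a promoter region was listed for 30.6% (10A shCTRL), 40.2% (DCIS shANCO1) and 38.2% (DCIS shCTRL) of the same genes. Taking the strongest promoter region of each gene, the median log2 fold was 3.45 (quartiles 3.03 and 3.96). Of the 10349 genes, 4976 (48.1%) had a promoter region in all 4 groups and 1720 (16.6%) in 10A shANCO1 alone. The 10A shCTRL list was almost contained in it, with 6080 of 6104 genes (99.6%), which was 58.7% of the longer list. DCIS shANCO1 shared 7622 genes, 94.9% of its own and 73.6% of the 10A shANCO1 list. Of the promoter regions, 5581 (34.4%) carried the letter for 2 genes or more, so the regions do not assign the mark to 1 gene there.

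CXCL8 headed the genes listed in 10A shANCO1 alone, with 7.69. It was followed by SAXO2 (7.66), DLC1, a tumor suppressor (7.62), STEAP1, a metalloreductase (7.61), CFAP54 (7.55), MLXIP (7.46), GRAMD1B (7.42), DUSP23 (7.40), AEBP2, a partner of the PRC2 complex (7.40) and PTPRQ (7.35). These are the largest folds among 1720 genes, chosen for being listed here and nowhere else, and no difference between groups was tested. All of these folds lay in the separate group of largest folds described above. The part that few input reads play in such folds was not tested, so their order is not a ranking of mark strength. The MLXIP and GRAMD1B regions rested on 4 windows each. The 24 genes with a promoter region in 10A shCTRL and none in 10A shANCO1 included the epidermal genes SPRR2E (7.0 in 10A shCTRL) and SPINK5 (6.56), and the cytokine gene IL6 (2.94). They were singled out after their values were seen, and the SPINK5 and IL6 regions rested on 1 window each.

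The label of the line was checked against marker lists, which are read against the 51.8% of all protein-coding genes with a promoter region. Counts in brackets after a list's count are those of 10A shCTRL, DCIS shANCO1 and DCIS shCTRL, in that order. For all protein-coding genes the shares in those groups were 30.6%, 40.2% and 38.2%. Among basal mammary epithelial markers 11 of 14 had a promoter region (7, 11 and 11), with a median log2 fold of 3.83 against 3.45 for all marked genes. TP63, the master regulator of basal cells, had 7.55, CAV1 had 4.98, KRT6A 4.59 and CD44 4.26, KRT15 was the weakest at 2.37, and KRT6B, KRT14 and KRT17 had none. The TP63 region began 159 kb downstream of the annotated 5′ end, inside the gene and 1000 bp from an internal protein-coding start of TP63. The start at the 5′ end had no region within 1 kb. TP63 had 12 regions in all, 10 of them overlapped in 10A shCTRL and 3 in each DCIS group. Among luminal hormone-sensing markers 7 of 16 had a promoter region (4, 6 and 5), with a median of 3.42. XBP1 had 4.43, KRT8 and KRT18 had 3.45 and PRLR had 3.42, KRT19 was the weakest at 2.37, which is the value of the same region of 2 windows, inside KRT15, that also counted for KRT15, and the receptor genes ESR1 and PGR were among those with none, as were TFF1, TFF3, AGR2, SPDEF, ELF5 and ANKRD30A. ESR1 nevertheless had 9 regions inside the gene with log2 folds from 2.51 to 7.89. Of 19 general epithelial markers 12 had a promoter region (5, 13 and 11), led by KLF5 (5.02), TJP1 (4.41), KRT7 (4.04) and EHF (3.78), with GRHL3 the weakest (2.36). CDH1, OCLN, GRHL1, OVOL1, OVOL2 and ELF3 had none. CDH2 stands in this list although it encodes N-cadherin, a cadherin of mesenchymal cells, and had none either.

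A promoter region was listed for 3 of 10 fibroblast markers (DCN 6.76, PDGFRA 2.97 and TWIST1 2.72), 1 of 10 blood cell markers (SPI1 3.44), 2 of 10 neuron markers (GAD1 4.97 and TUBB3 3.42) and 1 of 10 hepatocyte markers (TF 3.41). The DCN value rested on 1 window. The PDGFRA, SPI1 and TF regions had the promoter letter of the authors' annotation but did not lie over the gene or within 5 kb upstream of it, so these values are not at the promoters of those markers. The defining genes COL1A1, PTPRC, RBFOX3 and ALB had no promoter region.

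**Figure D4:**
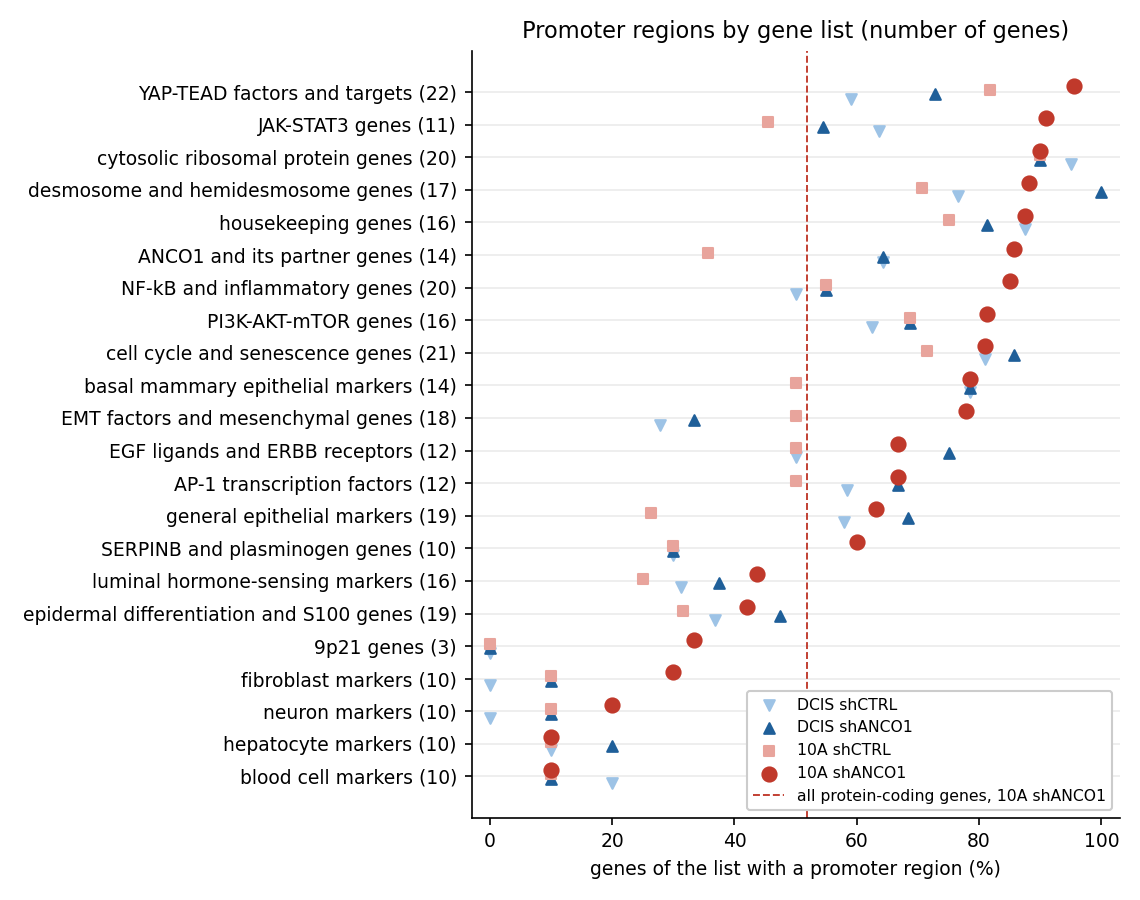
Share of the genes of each list with a promoter region (x axis, %), by list (y axis, number of genes in brackets), with 1 marker per group and the 51.8% of all protein-coding genes in 10A shANCO1 as a dashed line. In 10A shANCO1 the YAP-TEAD genes lie at 21 of 22 and the blood cell and hepatocyte markers at 1 of 10 each.

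Most genes of cell adhesion to matrix and neighbors had a promoter region in each group. Of 17 desmosome and hemidesmosome genes 15 had one (12, 17 and 13), or 88.2% (70.6%, 100% and 76.5%). Among all protein-coding genes the share was 51.8% (30.6%, 40.2% and 38.2%). The median log2 fold of the strongest promoter region of each marked gene, wherever it lay, was 4.77. LAMA3 had 7.82, the desmosomal cadherins DSC3 and DSG3 had 6.67 and 5.33, DSP had 5.31 and DSG2 was the weakest at 3.38. JUP and PKP1 had none, and the DSC3 value rested on 1 window. The strongest LAMA3 region began 139 kb inside the gene, 43620 bp from the nearest protein-coding start. The region over an internal start of LAMA3 had a log2 fold of 4.34. LAMA3 had 15 regions, of which 6 were overlapped in 10A shCTRL, 3 in DCIS shANCO1 and 1 in DCIS shCTRL.

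Of 12 genes for AP-1 factors 8 had a promoter region (6, 8 and 7), or 66.7% against 51.8% of all genes, with a median log2 fold of 3.76, among them JUNB (5.04), FOSL2 (4.60), JUND (4.55) and JUN (3.81), with FOSB the weakest (2.57). ATF3, BATF, BATF3 and MAFK had none. Of 22 YAP-TEAD factors and targets 21 had one, against 18 in 10A shCTRL, 16 in DCIS shANCO1 and 13 in DCIS shCTRL. Among all protein-coding genes the shares were 51.8%, 30.6%, 40.2% and 38.2% in the same order, and no difference between groups was tested. YAP1 encodes a coactivator restrained by Hippo signaling, and TEAD1 its DNA-binding partner. TEAD1 had 8.25, YAP1 8.04, F3, the initiator of clotting, 8.02 and CRIM1 7.33, with TEAD2 the weakest (2.24) and ANKRD1 the one without. The strongest YAP1 region began 113 kb inside the gene, and the region over its start had a log2 fold of 3.97 (2.83 in 10A shCTRL, 7.90 in DCIS shANCO1 and 3.70 in DCIS shCTRL). The strongest TEAD1 region began 1780 bp downstream of the start. The region over the TEAD1 start had 4.20 (5.07, 7.28 and 6.93 in the same order).

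The EGF list and the NF-kB and inflammatory list had the largest medians, taking the strongest promoter region of each gene wherever it lay. The desmosome and hemidesmosome list was close to them, at 4.77. Of 12 EGF ligands, receptors and regulators 8 had a promoter region (6, 9 and 6), with a median log2 fold of 4.79. AREG had 8.18, EREG 6.76, EPGN 5.93 and the feedback inhibitor ERRFI1 5.70, ERBB2 was the weakest at 2.62, and EGF, HBEGF, NRG1 and ERBB4 had none. The strongest AREG region began 2465 bp downstream of the start. The region over the AREG start had 5.02 (5.84 in 10A shCTRL, 7.31 in DCIS shANCO1 and 5.85 in DCIS shCTRL). The EREG value rested on 2 windows 13.5 kb inside the gene. The widest EREG region, of 3900 bp, began 8.66 kb inside the gene and had 5.62, and the one nearest the start had 3.70. Of 20 NF-kB and inflammatory genes 17 had a promoter region in 10A shANCO1, 11 in 10A shCTRL, 11 in DCIS shANCO1 and 10 in DCIS shCTRL, with a median log2 fold of 4.85. CXCL8 (7.69), CXCL2 (7.18) and CXCL3 (6.97) are chemokines and REL (7.13) is an NF-kB subunit, LIF was the weakest (2.47), and IL1RN, IL6 and TNF had none. The 4 genes of the list with a promoter region in 10A shANCO1 alone were CXCL8 and the NF-kB subunits RELA (3.45), NFKB2 (3.12) and RELB (2.87). Of all 10349 protein-coding genes with a promoter region in 10A shANCO1, 1720 (16.6%) had one in that group alone. A promoter region was listed for 51.8%, 30.6%, 40.2% and 38.2% of all protein-coding genes in the order above, and no difference between groups was tested. At CXCL2 the region over the start had a log2 fold of 3.57 and was overlapped in all groups (2.93, 4.44 and 3.19), while a region over the 3′ part of the gene had 7.18 and was overlapped in none. At CXCL3 the region over the start had 4.44 and was overlapped in all groups (2.72, 5.29 and 4.21). The CXCL3 region of 6.97 lay 3707 bp downstream of the start and was overlapped in none.

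Of 11 JAK-STAT3 genes 10 had a promoter region (5, 6 and 7), with a median log2 fold of 3.73, led by MCL1 (4.69), IL6ST (4.65), OSMR (3.78) and BCL3 (3.77), with IL6R the weakest (2.91) and SOCS3 the one without. Of 10 SERPINB and plasminogen genes 6 had one (3, 3 and 3), with a median of 3.80, among them SERPINB2 (6.70), SERPINB5 (3.81) and SERPINB7 (3.79), with PLAUR the weakest (2.92). SERPINB3, SERPINB4, SERPINB13 and PLAT had none. Of 19 epidermal differentiation and S100 genes 8 had a promoter region (6, 9 and 7), or 42.1% against 51.8% of all genes, with a median of 3.77, led by S100A10 (5.11), S100A2 (4.18), S100A14 (4.04) and S100A16 (4.04), with S100A9 the weakest (2.51). The cornified envelope genes LORICRIN, FLG, SPRR1A, SPRR1B, SPRR2A, SPRR2D and SPRR3 had none, nor had S100A7, S100A8, CRNN and RPTN.

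Of 18 EMT factors and mesenchymal genes 14 had a promoter region, against 9 in 10A shCTRL, 6 in DCIS shANCO1 and 5 in DCIS shCTRL, with a median log2 fold of 3.69. Over all protein-coding genes the shares were 51.8%, 30.6%, 40.2% and 38.2% in the same order. TGFBR2 had 8.35, the matrix protein FN1 5.26 and the repressors SNAI2 and ZEB2 4.63 and 4.56, TGFB1 was the weakest (2.61), and SNAI1, MMP1, MMP2 and MMP9 had none. Of 14 genes for ANCO1 and its partners 12 had one, against 5, 9 and 9 in 10A shCTRL, DCIS shANCO1 and DCIS shCTRL. Their median was 3.72, led by ANKRD11 itself (5.07), its paralog ANKRD12 (4.94), the corepressor NCOR1 (4.36) and the acetyltransferase EP300 (4.28). KAT2A was the weakest (2.23), and KAT2B and TADA2A had none. The table held 28607 regions here and 15490 in 10A shCTRL, which bears on every count of a list, and no difference between groups was tested.

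Growth and housekeeping lists, apart from the genes at 9p21, were marked in most members. Of 16 PI3K-AKT-mTOR genes 13 had a promoter region (11, 11 and 10), with a median log2 fold of 3.73. RHEB had 5.37, PIK3R1 5.12 and PIK3CA 4.51, AKT2 was the weakest (2.94), and TSC2 and PDPK1 were among those with none. Of 21 cell cycle and senescence genes 17 had one (15, 18 and 17), with a median of 3.70. The tumor suppressor RB1 had 7.46, CDKN2C 5.55, LMNB1 5.19 and GLB1 4.73, CDK4 and PLK1 were the weakest (3.12), and CCND2, CCNE1, CCNE2 and E2F1 had none. Of 3 genes at 9p21, MTAP had a promoter region (3.40), and the CDK inhibitor genes CDKN2A and CDKN2B had none. Of 20 ribosomal protein genes 18 had one, with a median of 3.91, led by RPL4 (4.61), RPS3 (4.42), RPS12 (4.33) and RPL3 (4.22), with RPL10A the weakest (3.16) and RPS9 and RPS18 without. Of 16 housekeeping genes 14 had one (12, 13 and 14), with a median of 3.68, among them ENO1 (5.19), EEF1A1 (4.25) and LDHA (3.93), with GUSB the weakest (2.47) and HPRT1 and B2M without. Ribosomal protein genes with a promoter region numbered 18, 18 and 19 in 10A shCTRL, DCIS shANCO1 and DCIS shCTRL. Over all lists, 219 of 320 genes (68.4%) had a promoter region, against 51.8% of all protein-coding genes. The shares over all lists were 49.1%, 59.1% and 53.1% in the other groups, in the same order. Those of all protein-coding genes were 30.6%, 40.2% and 38.2%, and no difference between groups was tested.

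Intronic and intergenic regions overlapped the DCIS groups less often than promoter regions did, while the shares that overlapped 10A shCTRL were close to each other. Of promoter regions 42.5% overlapped a region of 10A shCTRL by at least 1 base, 51.7% one of DCIS shANCO1 and 47.2% one of DCIS shCTRL. Of intronic regions the shares were 39.2%, 24.2% and 14.8%, and of intergenic regions 41.2%, 30.1% and 18.4%. The 639 exonic regions stood at 51.5%, 32.1% and 18.0%, so their overlap with 10A shCTRL was above that of promoter regions. In all, 11621 regions (40.6%) overlapped none of the 3 other tables, and 26.4% of these rested on 1 window. The 5702 regions (19.9%) that overlapped all 3 were 79.4% promoter regions with a median width of 1400 bp, and 0.67% of them rested on 1 window. The 3991 regions (14%) that overlapped 10A shCTRL and neither DCIS table were 32.4% promoter and 37.4% intronic, with a median log2 fold of 3.94. Seen from the other tables, 75.9% of the DCIS shANCO1 regions and 69.4% of the DCIS shCTRL regions overlapped a region of 10A shANCO1.

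Overlap depended on the fold. With the regions cut into 4 equal groups by log2 fold, at 2.93, 3.40 and 4.07, the share that overlapped 10A shCTRL was 18.5%, 37.4%, 54.4% and 56.5% from the weakest to the strongest. The share that overlapped DCIS shANCO1 was 37.6%, 45.1%, 47.6% and 33.8%, lowest in the strongest group. The promoter share was 65%, 62.9%, 58.5% and 40.4%, and the median width 400, 600, 800 and 800 bp. Whether the overlap with DCIS differs at equal width and class was not tested.

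**Figure D5:**
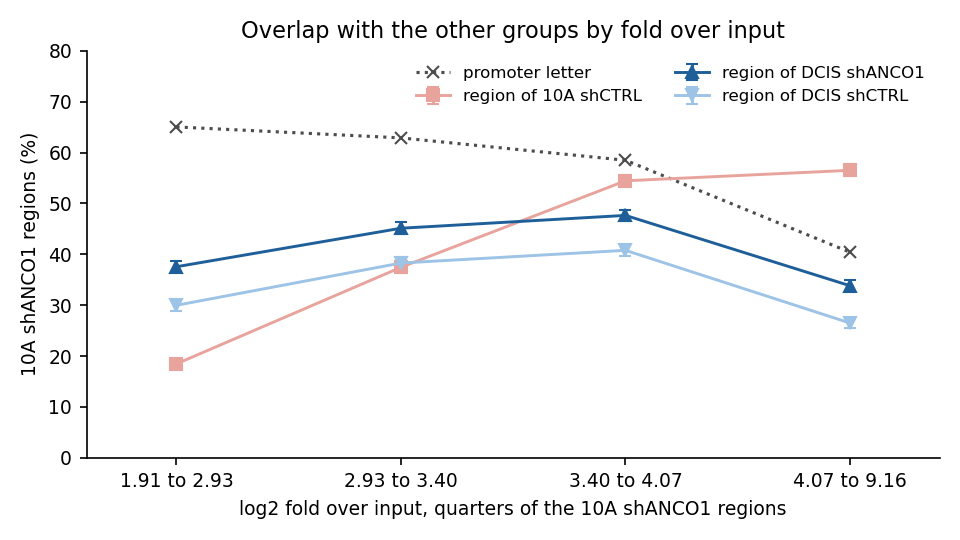
Share of 10A shANCO1 regions (y axis, %) that overlap a region of another group, with Wilson 95% intervals, and share with a promoter letter, in 4 equal groups by log2 fold over input (x axis). Overlap with 10A shCTRL goes from 18.5% to 56.5%, while overlap with both DCIS groups is lowest in the strongest group.

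Regions were spread unevenly over the chromosomes. The genome held 9.44 regions per Mb, chromosome 19 held 17.3, chromosome 17 held 15.3, chromosome 20 held 15.2, chromosome 13 held 6.23 and chromosome X held 3.26. Chromosome 19 regions were 86.3% promoter regions and had the lowest median log2 fold (2.97) of any chromosome. Chromosome 20 had the most marked bases, 15.2 kb per Mb, with 51.0% promoter regions. On chromosome X 24.6% of protein-coding genes had a promoter region, the lowest share of any chromosome. Copy number of the line was not measured in the tables, and its part in these values was not tested.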

How the data were processed

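H3K27Ac and input chromatin of 10A and DCIS cells was sequenced in 24 libraries. The authors used BWA and Rsubread for alignment to GRCh38, dropped duplicate reads by SAMtools, scored windows with csaw and annotated regions with ChIPpeakAnno, as the study's methods state. HOMER served for motif enrichment in the study and was not used here. The 4 deposited tables used here gave, per region, the number of windows, a p-value and FDR, the log2 fold over input of a representative window, and genes with letters for promoter, exon or intron. Per the series' design text, each group was set against its own input. The filter on windows and the prior count were not given in the sources used here. The depth per library was unknown. The 2 tables of the authors' own comparison of shANCO1 with control hold fold changes and p-values and were not used.

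Regions, overlaps of at least 1 base, domains joined within 3 kb, genes and motifs were counted in Python 3.11.15 with pandas 2.3.3, numpy 2.4.6 and scipy 1.17.1. A region was called at an FDR under 0.05 in the upward direction. A class was promoter before exon before intron. Gene starts came from GENCODE 44 (GRCh38), and 94.7% of 25258 pairs of a region and a named gene lay within 3 kb of the gene of that name. Of the names with a promoter letter, 10349 were protein-coding genes, 1923 lncRNAs and 398 miRNAs, and 315 matched neither table. Intervals on shares are Wilson 95% intervals over regions, which are not independent, and cover counting error only. The overlap, joining, gap and motif steps were tested on simulated data.

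The members and lists were chosen with earlier results of these data known. Named were ANKRD11; the 10 promoter and 10 other regions of at least 5 windows with the largest fold; the widest regions and domains; the genes with the most marked bases; of each list the 4 strongest and the weakest member and those with none, of which a few are not reported here; the 5 weakest promoter regions; and the 10 strongest genes listed in this group alone. Promoter sequences are RefSeq windows of GRCh38.p14. Gap, start and representative-window counts and the split at a log2 fold of 6.5 were added after the data were seen.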

Additional observations from a re-analysis of the deposited data

How the results depend on the processing

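No paired analysis was possible because the tables hold 1 value per region for a whole group, and for the same reason no library could be left out. The count of 28607 regions was 21391 at an FDR under 1e-10, 19930 when joined within 3 kb and 14672 with at least 5 windows. The promoter share of 56.7% was 37.8% by a GENCODE start within 1 kb, 41.5% within 2.5 kb, 60.5% by bases, 62.5% with at least 5 windows and 57.7% with a log2 fold under 6.5. The median log2 fold of promoter minus other regions, -0.31, was -0.57 among the regions below the median FDR and -0.45 with at least 5 windows. With at least 50% of the region covered, 50% reciprocal overlap, an FDR under 1e-10 in both tables and at least 5 windows, the overlap with 10A shCTRL (41.7%) was 23.4%, 19.5%, 27.7% and 66.9%. Under the same settings the overlap with DCIS shANCO1 (41.0%) was 28.3%, 22.3%, 44.4% and 59.96%, and with DCIS shCTRL (33.9%) 23.1%, 17.8%, 28.2% and 49.6%. The density ratio of chromosome 19 to the genome was 1.83 by regions and 1.64 by bases. The AP-1 share of regions without a promoter letter, 17.8% in 500 bp, was 7.02% in 200 bp, 45.0% in 1000 bp and 3.39% in the representative window. The share of gaps with AP-1 letters, 41.0%, was 38.1% with at least 5 windows on each side, and 43.5% and 38.4% in the lower and upper group by fold. The cause of these differences was not tested, except that a shorter window holds fewer letters and a stricter overlap counts fewer regions by construction. Single lists aside, the value moved by less than 1.5 times or less than its interval in 17 recounts, the 21391 and 19930 regions above among them. In 27 recounts it moved by more. The number of protein-coding genes with a promoter region ran from 7729 to 10347. Neuron markers went from 2 to 6 of 10 and blood cell markers from 1 to 0 when any region over the gene or 5 kb upstream was counted.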

Other observations

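Noncoding genes were among the strongest promoter regions. Besides LINC02015 (log2 fold 8.52), MIR3175, which shares its region with CHD2 (8.58), and HOXA-AS3 (8.42), large values were at CASC19 (8.35), FAM218A (8.18), ARRDC3-AS1 (8.08), COA6-AS1 (8.07) and MIR100 (7.98). FAM218A had no promoter region in DCIS shANCO1 and stood at 4.44 in 10A shCTRL and 6.82 in DCIS shCTRL. MIR100 stood at 4.07 in 10A shCTRL, 6.52 in DCIS shANCO1 and 8.04 in DCIS shCTRL. These genes were chosen by their fold, and no difference between groups was tested.

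By FDR the order was another. The lowest FDR, 3.37e-33, belonged to a region of 42 windows at CCAT1 with a log2 fold of 5.43, and the next to an intergenic region 13988 bp from TGFBI, with 1.60e-32 and 5.84. An intronic region of the integrin gene ITGB6 was also among the 10 lowest, with a log2 fold of 5.93 against 5.23 in 10A shCTRL, 5.27 in DCIS shANCO1 and 5.45 in DCIS shCTRL.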
